A study of Homo sapiens with 9 samples.

Results

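The enzymes that write and erase methyl and acetyl groups on histone lysines were taken as a set of 67 genes out of the 56541 named in the count table. A gene entered by its symbol, with the prefixes KMT, KDM, SETD, NSD, HDAC and KAT followed by a number, together with EZH1, EZH2, EHMT1, EHMT2, SUV39H1, SUV39H2, SETDB1, SETDB2, EP300 and CREBBP. A further 2 symbols that match these prefixes were left out. The rule reads symbols and no measured value, and it was set with earlier results of these data known. The deposited counts allowed a test of 63 members in each comparison, and the other 4 (HDAC11, KDM4D, KDM4E and KDM4F) were at 0 in all 9 libraries.

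The cells were MOLM-13, an established human acute myeloid leukaemia line, and total RNA was sequenced after removal of ribosomal RNA with a stranded kit. The 3 groups of 3 libraries were cells labelled shCONTROL, cells labelled shBCLAF1, which carry a hairpin against BCLAF1, and BCLAF1 RNA immunoprecipitates (RIP) prepared from shCONTROL cells. All 9 libraries, controls included, came from cells kept for 4 days in 200 ng/µL doxycycline, and more cells went into a RIP than into an RNA-seq sample. BCLAF1 is a nuclear protein that binds RNA and takes part in transcription and splicing. The labels name no mock precipitation, so shCONTROL RNA-seq is the reference for the RIP, and a difference there joins what the precipitation did to what differs between a RIP library and an RNA-seq library. They also give neither the number of hairpin sequences nor whether replicates were separate cultures, so that p-values measure only the spread between these samples.

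Histone methyltransferases of the SET domain family transfer methyl groups to particular lysines, and the mark depends on the lysine: methylated H3K4 goes with enhancers and active promoters, H3K36 with transcribed gene bodies, and H3K9 and H3K27 with silenced chromatin. Demethylases of the LSD and JmjC families remove these groups. Acetyltransferases neutralise lysines in open chromatin and deacetylases restore the charge, mostly as subunits of corepressor complexes. Several of these enzymes are recurrently altered or are drug targets in myeloid leukaemia, among them EZH2, KDM1A and the H3K4 methyltransferases.

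Library totals ran from 25819144 to 36635268 counts. A count of 3, the upper limit that a 0 allows for counting error, corresponds to 0.0819 to 0.116 CPM of total counts, without scaling. Other CPM values are the count relative to the library's total after scaling by TMM factors, unless total counts are named. BCLAF1 itself was at 325, 328 and 312 CPM in shCONTROL and at 115, 125 and 99.9 CPM in shBCLAF1, a fall to 35.3% (log2 change -1.50 with SE 0.085, adjusted p = 2.06e-04), and at 1143, 1059 and 1034 CPM in the RIP. Of 8 markers of the line, 7 were detected and CSF2RA was at 0. Their summed level ran from 1655 to 1737 CPM in shCONTROL, was 3406 to 3882 CPM with the BCLAF1 hairpin, and from 1263 to 1332 CPM among RIP libraries. LYZ alone had a mean of 729, 2638 and 46.7 CPM in shCONTROL, shBCLAF1 and the RIP. The sums therefore followed this gene and do not describe the other markers. After knock-down LYZ (lysozyme, 1.86, adjusted p = 1.19e-04), SPI1 (0.37, adjusted p = 0.00418) and CD33 (0.34, adjusted p = 0.00937) rose on the log2 scale in edgeR's test, FLT3 fell (-0.18, adjusted p = 0.0265), and PTPRC, ITGAM and CD4 did not pass. In the RIP LYZ was at 6.38% and CD4 at 34.5% of the control level (log2 change -3.97, adjusted p = 2.24e-04, and -1.53, adjusted p = 0.00103), FLT3 was higher (0.88, adjusted p = 0.0025), and the other 4 did not pass. Of the erythroid markers, HBB, GYPB and KLF1 were at 0 in every library, whereas HBA2 had 993, 0 and 1660 counts and HBA1 66, 35 and 77 counts in the RIP libraries and none in RNA-seq. Of the T cell markers CD3D alone was above 0, and of the epithelial and stromal markers KRT8 and KRT18. The B cell marker CD79A was above 0 as well. The part of these shifts in the results was not tested.

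After knock-down of BCLAF1 the enzyme genes moved by little and in both directions. Of the 63 tested members 14 rose (22.2%) and 10 fell (15.9%), and 39 did not pass the test. Over all genes tested 15.5% were higher and 16.9% lower, and over protein-coding genes 20.2% and 21.1%, so the members' shares lie near the background. The median log2 fold change of the members was 0.049, against 0.017 over all genes and 0.0053 over protein-coding genes. In 19 members the shBCLAF1 libraries all lay above the shCONTROL libraries and in 14 all below, which was so for 24.2% and 25.1% of all genes. Of the members that passed, only KDM7A moved by at least 1 on the log2 scale, and it fell, whereas 2.24% of all genes fell by that much and 1.77% rose by it. Calls are from edgeR's quasi-likelihood test at an adjusted p of 0.05. In bulk RNA, fewer cells that make a transcript and less of it per cell cannot be told apart.

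**Figure D1:**
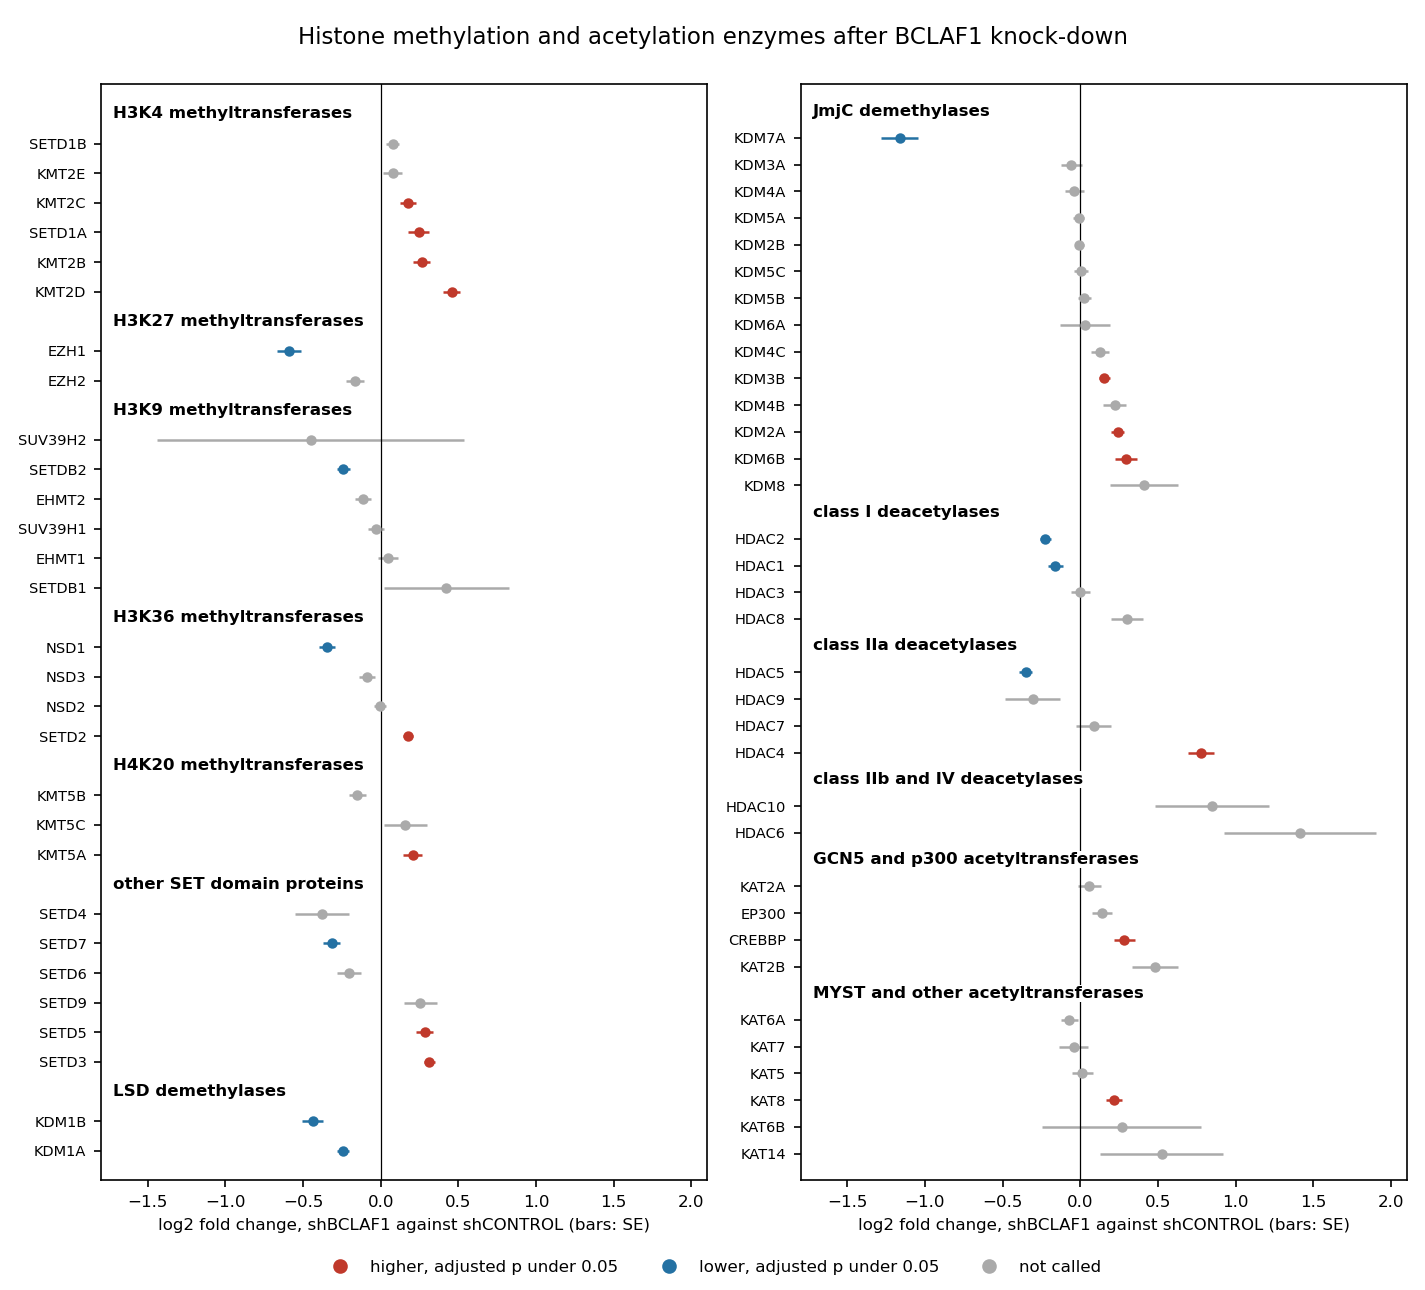
Log2 fold change of each tested member (shBCLAF1 minus shCONTROL, horizontal axis) by enzyme class, with bars of 1 standard error; colour marks members that rose, fell or did not pass edgeR's test. Most members lie near 0, KDM7A stands lowest at -1.16 and HDAC4 is the highest of those that passed, at 0.78.

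Of the 6 genes listed as H3K4 methyltransferases 4 rose and none fell, with a median log2 fold change of 0.21. KMT2E is in this list by its family name, and enzyme activity was not measured for any member. KMT2D, which places monomethyl H3K4 at enhancers, was at 446, 439.7 and 481 CPM in shCONTROL and 599.8, 610.5 and 661 CPM in shBCLAF1 (log2 change 0.46 with SE 0.055, adjusted p = 0.00189). Its knock-down libraries all lay above its control libraries. The other risers were KMT2B, which trimethylates H3K4 at promoters, with 134, 127 and 131 against 147, 156 and 166 CPM (0.26, adjusted p = 0.0122), and SETD1A, the catalytic subunit of a SET1 complex, with 97.7, 96.5 and 104 against 110.1, 114 and 128 CPM (0.24, adjusted p = 0.0366). KMT2C, the close relative of KMT2D, had 238, 266 and 245 against 283, 271 and 290.2 CPM (0.18, adjusted p = 0.0474). In each of these genes the groups did not overlap, though the gap was small next to that of KMT2D. KMT2E (0.077, adjusted p = 0.383) and SETD1B (0.076, adjusted p = 0.229) did not pass. KMT2B no longer passed without shCONTROL replicate 2 or 3 (adjusted p from 0.0541 to 0.0557), and its adjusted p over 13 alternatives ran from 3.42e-05 to 0.0557. SETD1A no longer passed without shCONTROL replicate 1, 2 or 3 or shBCLAF1 replicate 2 (adjusted p from 0.0675 to 0.112), and its adjusted p over 13 alternatives ran from 0.00222 to 0.687. KMT2C no longer passed without shCONTROL replicate 1 or 3 or shBCLAF1 replicate 1, 2 or 3 (adjusted p from 0.0717 to 0.119), and its adjusted p over 13 alternatives ran from 0.00490 to 0.571.

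The 250 bases before the start of these 4 genes are shown as a description. The genes were picked because most of this class rose after knock-down and all of it was higher in the RIP. Over all genes tested 15.5% rose after knock-down and 24.6% were higher in the RIP. A link between these bases and either comparison was not tested. They are RefSeq sequence of GRCh38.p14 in the direction of each gene, and capitals mark the GC box GGGCGG, the core of Sp1-type sites, on either strand, overlapping copies merged. The intervals are chr19:35717753-35718002 on the plus strand, chr7:152436004-152436253 on the minus strand, chr12:49060795-49061044 on the minus strand and chr16:30957504-30957753 on the plus strand.
KMT2B: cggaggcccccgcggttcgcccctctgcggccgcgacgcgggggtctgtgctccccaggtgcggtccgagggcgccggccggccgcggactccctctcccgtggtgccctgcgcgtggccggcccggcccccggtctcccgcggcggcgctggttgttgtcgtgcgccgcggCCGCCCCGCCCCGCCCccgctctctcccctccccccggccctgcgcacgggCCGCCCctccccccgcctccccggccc
KMT2C: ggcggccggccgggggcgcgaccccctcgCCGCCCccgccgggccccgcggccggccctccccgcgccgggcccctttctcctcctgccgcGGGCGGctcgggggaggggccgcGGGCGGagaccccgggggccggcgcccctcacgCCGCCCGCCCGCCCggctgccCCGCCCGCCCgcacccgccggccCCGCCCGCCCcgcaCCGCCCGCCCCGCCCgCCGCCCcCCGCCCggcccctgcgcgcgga
KMT2D: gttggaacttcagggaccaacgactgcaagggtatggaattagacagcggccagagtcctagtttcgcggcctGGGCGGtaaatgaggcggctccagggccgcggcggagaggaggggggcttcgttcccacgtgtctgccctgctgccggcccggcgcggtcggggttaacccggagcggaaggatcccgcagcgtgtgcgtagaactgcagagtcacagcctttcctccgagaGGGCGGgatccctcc
SETD1A: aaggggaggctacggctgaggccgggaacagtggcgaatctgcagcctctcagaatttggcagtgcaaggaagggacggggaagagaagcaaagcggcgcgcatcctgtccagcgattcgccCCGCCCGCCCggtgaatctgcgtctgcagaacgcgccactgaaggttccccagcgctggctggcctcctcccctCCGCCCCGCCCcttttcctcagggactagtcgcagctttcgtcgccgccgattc
The box starts 4 times in KMT2B, 15 times in KMT2C, 2 times in KMT2D and 4 times in SETD1A, and these windows hold 84.4%, 92.0%, 65.6% and 65.2% G and C. All 4 are G and C rich, and KMT2C is the most so. A GC box is in 42.6% of the 35116 RefSeq promoter entries of this length, where a gene can have several entries and need not be expressed here. It is in 28 of the 41 tested members that have a single promoter entry (68.3%). These sets are unlike, here and for the motifs below, and no share over a matched set of genes was computed. The E-box CACGTG is in 6.34% of promoters and in 7 of those 41 members, KMT2D being the only one of these 4 genes with it. The ETS core CCGGAAG is in 8.52% of promoters and 7 of the 41, and the CCAAT box in 32.0% and 12 of the 41. A match is a description of these letters, counted on both strands.

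The H3K27 methyltransferases EZH1 and EZH2, the alternative catalytic subunits of Polycomb repressive complex 2, gave 1 fall and no rise. EZH1 (chr17:42700275-42745040) was at 36.6, 36.6 and 32.01 CPM in shCONTROL and 21.98, 24.2 and 23.3 CPM in shBCLAF1, a fall to 66.3% (log2 change -0.59 with SE 0.077, adjusted p = 0.00238). All knock-down libraries lay below all controls. EZH2 had 73.5, 81.6 and 83.7 against 70.7, 69.5 and 72.2 CPM and did not pass edgeR's test (-0.16, adjusted p = 0.0825), although its groups did not overlap. Without shCONTROL replicate 1 EZH2 passed, and it passed with DESeq2, so its side of the threshold depends on the setting; its adjusted p over 13 alternatives ran from 0.0158 to 0.494.

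The H3K9, H3K36 and H4K20 methyltransferases gave calls in both directions, where 15.5% of all genes tested were higher and 16.9% lower. Of 6 H3K9 methyltransferases 1 fell, SETDB2, with 81.2, 85.2 and 86.6 against 70.8, 72.2 and 70.6 CPM (log2 change -0.24 with SE 0.042, adjusted p = 0.00677). Its groups did not overlap. EHMT1 and EHMT2, which act together on H3K9, had 69.5, 65.8 and 74.1 against 69.3, 70.05 and 76.7 CPM and 121, 115 and 128 against 109.8, 109.8 and 116 CPM. SUV39H1, an enzyme of heterochromatin, had 41.1, 37.6 and 39.7 against 39.4, 38.2 and 38.1 CPM, and SETDB1 61.8, 47.5 and 23.1 against 51.4, 42.8 and 82.7 CPM. In these 4 genes the groups overlapped and none passed, with EHMT1, EHMT2 and SUV39H1 between -0.11 and 0.049 on the log2 scale. Of 4 H3K36 methyltransferases NSD1, which deposits dimethyl H3K36, fell from 146, 133 and 147 to 112, 115 and 108 CPM (log2 change -0.34 with SE 0.051, adjusted p = 0.00399), and SETD2, the trimethylating enzyme that travels with RNA polymerase II, rose (0.18, adjusted p = 0.00781). NSD2 had 229.8, 242 and 236 against 229.8, 233 and 242 CPM (-0.0027, adjusted p = 0.967) and NSD3 271, 279.9 and 276 against 267, 267 and 242 CPM (-0.089, adjusted p = 0.230), and neither passed. The groups overlapped for NSD2, and for NSD3 the knock-down libraries lay just below the controls. Of the 3 H4K20 methyltransferases KMT5A, the monomethylating enzyme, rose from 30.2, 30.9 and 32.5 to 38.1, 34.6 and 35.02 CPM, by 0.21 on the log2 scale (adjusted p = 0.0460). KMT5A no longer passed without shCONTROL replicate 1, 2 or 3 or shBCLAF1 replicate 1, 2 or 3 (adjusted p from 0.0550 to 0.116), and its adjusted p over 13 alternatives ran from 0.00896 to 0.425.

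In the remaining SET domain proteins 2 rose and 1 fell. SETD3, better known as a methyltransferase of actin, was at 71.3, 72.5 and 71.7 CPM in shCONTROL and 89.1, 88.7 and 89.4 CPM in shBCLAF1 (log2 change 0.31 with SE 0.033, adjusted p = 0.00113). Its replicates lay close together in both groups, and the groups did not overlap. SETD5 rose from 187, 209 and 203 to 237, 253 and 237 CPM (0.28, adjusted p = 0.0104). SETD7, which methylates H3K4 and many other proteins, fell from 191, 189 and 185 to 157, 154 and 140.1 CPM (log2 change -0.32 with SE 0.053, adjusted p = 0.00582). SETD4, SETD6 and SETD9 did not pass.

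Both LSD demethylases, which use flavin to remove methyl groups from H3K4, fell. KDM1B (LSD2; chr6:18155422-18223854) was at 110.5, 107 and 104 CPM in shCONTROL and 85.9, 77.9 and 72.6 CPM in shBCLAF1 (log2 change -0.44 with SE 0.068, adjusted p = 0.00448). KDM1A (LSD1), a drug target in acute myeloid leukaemia, was at 145, 139.9 and 149 against 123, 120.3 and 123 CPM (log2 change -0.24 with SE 0.038, adjusted p = 0.00475). The groups did not overlap for either gene, and the fall in KDM1A was the smaller.

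Of the 14 tested JmjC demethylases, which use iron and oxoglutarate, 3 rose and 1 fell. The one that fell, KDM7A (chr7:140084746-140176983), an eraser of H3K9 and H3K27 methylation, had the largest fold change of all members that passed. It was at 38.9, 51.9 and 40.7 CPM in shCONTROL and 19.8, 19.96 and 18.8 CPM in shBCLAF1, 44.7% of the control level (log2 change -1.16 with SE 0.12, adjusted p = 0.00106). The knock-down libraries were close together and the controls were spread more widely, with shCONTROL replicate 2 the highest. KDM2A, an H3K36 demethylase of CpG islands, rose from 182, 166 and 176 to 207, 206 and 205 CPM (0.24, adjusted p = 0.00681). KDM6B, an H3K27 demethylase, rose from 79.7, 88.4 and 79.98 to 95.6, 97.9 and 109.9 CPM (0.29, adjusted p = 0.0234). The knock-down libraries of both lay above their controls, and KDM3B, an H3K9 demethylase, was the other riser (0.16, adjusted p = 0.0178). KDM6A, the X-linked relative of KDM6B, had 29.5, 46.8 and 37.9 against 40.3, 36.8 and 39.2 CPM and did not pass (0.03, adjusted p = 0.911). The H3K4 demethylases KDM5A, with 155, 164 and 157 against 159, 154 and 158 CPM (-0.01, adjusted p = 0.863), and KDM5B, with 164, 174 and 171 against 167, 177 and 172 CPM (0.025, adjusted p = 0.703), did not pass. KDM5C had 123, 130.1 and 123 against 125, 121 and 130.1 CPM (0.0047, adjusted p = 0.950). The values of these 4 overlapped between the groups, and those of the KDM5 genes lay next to 0. KDM6B no longer passed without shCONTROL replicate 1 or 3 or shBCLAF1 replicate 2 (adjusted p from 0.0534 to 0.0836), and its adjusted p over 13 alternatives ran from 3.99e-04 to 0.577.

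Among deacetylases the class I enzymes HDAC1 and HDAC2, paired subunits of the NuRD, Sin3 and CoREST complexes, fell slightly. HDAC2 was at 238, 227 and 230.0 CPM in shCONTROL and 199.5, 194 and 200.1 CPM in shBCLAF1 (log2 change -0.22 with SE 0.034, adjusted p = 0.00410), and HDAC1 at 142, 139 and 146 against 133, 126 and 121 CPM (log2 change -0.16 with SE 0.048, adjusted p = 0.0454). Neither gene's groups overlapped. HDAC1 no longer passed without shCONTROL replicate 1, 2 or 3 or shBCLAF1 replicate 2 or 3 (adjusted p from 0.0614 to 0.131), and its adjusted p over 13 alternatives ran from 0.00315 to 0.762. HDAC3, the deacetylase of the NCoR complex, was at 0.00034 with adjusted p = 0.998.

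The class IIa deacetylases, which shuttle between nucleus and cytoplasm and repress MEF2 targets, went both ways. HDAC4 (chr2:239048168-239401649) rose from 47.3, 57.3 and 48.1 CPM in shCONTROL to 84.6, 88.6 and 87.8 CPM in shBCLAF1, 1.71-fold (log2 change 0.78 with SE 0.082, adjusted p = 0.00115). HDAC5 fell from 68.5, 71.2 and 69.7 to 53.2, 53.8 and 56.6 CPM (log2 change -0.35 with SE 0.042, adjusted p = 0.00186). The knock-down libraries of HDAC4 all lay above its controls and those of HDAC5 all below. HDAC6, mainly a tubulin deacetylase, had 4.62, 13.4 and 4.39 CPM in shCONTROL and 22.9, 23.2 and 13.8 CPM in shBCLAF1 and did not pass (log2 change 1.42 with SE 0.49, adjusted p = 0.0739). Its replicates were spread in both groups, which did not overlap.

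Of the GCN5 and p300 acetyltransferases CREBBP rose, from 154, 153 and 159.6 to 199, 197 and 170.4 CPM (log2 change 0.28 with SE 0.068, adjusted p = 0.0226). Its partner EP300, which acetylates the same lysines at enhancers, did not pass, with 273, 275 and 282 against 321, 316 and 275 CPM (0.14, adjusted p = 0.160). KAT2B (PCAF) had 11.95, 15.04 and 12.9 against 19.8, 20.6 and 15.2 CPM and gave 0.48 (adjusted p = 0.0520), and KAT2A (GCN5) had 70.2, 61.1 and 71.9 against 66.96, 73.4 and 70.6 CPM and gave 0.058. The knock-down libraries of KAT2B lay above its controls, and those of KAT2A overlapped theirs. KAT2B passed in 5 of 13 alternatives, among them DESeq2 and the fits without shCONTROL replicate 2 or shBCLAF1 replicate 3 (adjusted p over all 13 from 0.00564 to 0.152), and EP300 in 2, by total counts and without shBCLAF1 replicate 3 (from 0.00799 to 0.837). CREBBP no longer passed without shCONTROL replicate 1 or 2 or shBCLAF1 replicate 1 or 2 (adjusted p from 0.0565 to 0.0763), and its adjusted p over 13 alternatives ran from 2.53e-04 to 0.743. Among 6 MYST and other acetyltransferases KAT8, the H4K16 acetyltransferase, rose from 34.8, 35.4 and 33.9 to 38.6, 40.04 and 41.9 CPM (0.22, adjusted p = 0.0217), and KAT5, KAT6A, KAT6B, KAT7 and KAT14 did not pass. KAT8 no longer passed without shCONTROL replicate 1 or 3 or shBCLAF1 replicate 2 (adjusted p from 0.0665 to 0.0823), and its adjusted p over 13 alternatives ran from 0.00158 to 0.112.

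**Figure D2:**
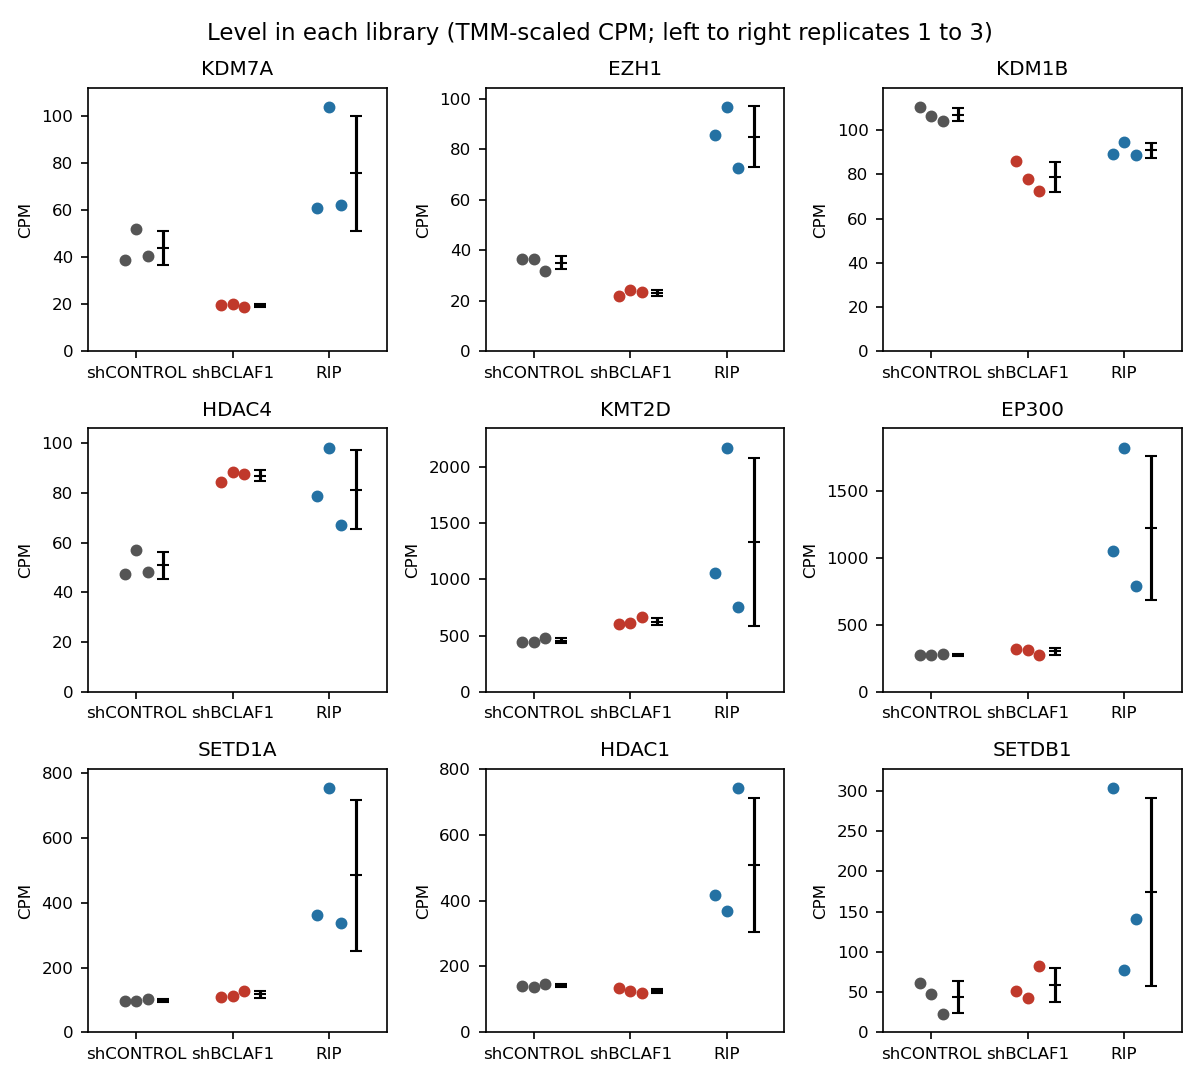
CPM (vertical axis, from 0) of 9 members in the 9 libraries, 1 point a library in shCONTROL, shBCLAF1 and RIP, with a bar for each group's mean and SD (n = 3). KDM7A and EZH1 are lowest in shBCLAF1, KDM1B is lower in shBCLAF1 and in the RIP than in shCONTROL, and RIP replicate 2 leads in KMT2D, EP300 and SETD1A.

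The number of members that rose depended on the libraries in the fit. It was 8 without shCONTROL replicate 1, 8 without shCONTROL replicate 3 and 7 without shBCLAF1 replicate 2, whereas the number that fell stayed at 9 or 10. The share of all genes that rose was 12.4%, 11.6% and 11.4% in those fits, against 15.5% with every library. When all 9 libraries shared a single estimate of the spread, only HDAC4 rose and only KDM7A, EZH1 and KDM1B fell. In that fit 6.48% of all genes rose and 7.57% fell. HDAC4, KDM7A, EZH1 and KDM1B, these 4 genes, kept their calls in each of the 13 alternatives. CPM values were compared within a gene only, since no transcript length was used.

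The 122 partner genes of these enzymes, from lists of complex subunits and readers, were all tested, and 18 rose and 22 fell with a median of -0.0069, against background shares of 15.5% risen and 16.9% fallen over all genes. In the Polycomb list 2 of 9 rose and 2 fell, among them JARID2 (0.54, adjusted p = 6.29e-04), which recruits the complex, and SUZ12 (-0.26, adjusted p = 0.0149), which holds it together. In the list of H3K9 methylation partners 1 of 8 rose and 2 fell, led by CBX5 (-1.65, adjusted p = 8.17e-05), the heterochromatin protein HP1 alpha. Among 10 partners of the H3K4 enzymes 1 rose and 2 fell, RBBP5 (-0.41, adjusted p = 0.00454) and WDR5 (-0.25, adjusted p = 0.0118) being core subunits that fell. Of 25 deacetylase corepressor subunits 4 rose and 6 fell, with SAP30 (-0.37, adjusted p = 0.0414) of Sin3 and MTA1 (-0.37, adjusted p = 0.00567) of NuRD lower and RCOR1 (0.32, adjusted p = 0.00427) of CoREST higher. Of 35 acetyltransferase complex subunits 5 rose and 5 fell, TAF6L (0.48, adjusted p = 0.0128) and USP22 (-0.45, adjusted p = 0.00105) among them. Of 13 other lysine methylation enzymes 3 rose and 1 fell, with SMYD3 (0.64, adjusted p = 3.16e-04) higher, and of 10 other acetylation enzymes only the coactivator NCOA3 rose (0.24, adjusted p = 0.0390). Of 12 bromodomain readers 1 rose and 4 fell, with BRD3 (-0.77, adjusted p = 2.30e-04) and the remodeller subunit BAZ1B (-0.34, adjusted p = 6.62e-04) lower.

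In the BCLAF1 RIP the enzyme genes were mostly higher than in shCONTROL RNA-seq. Of the 63 tested members 43 were higher (68.3%) and 4 were lower (6.35%), where 24.6% of all genes tested were higher and 24.7% lower (28.8% and 28.1% of protein-coding genes). At a log2 fold change of at least 1, 24 members were higher (38.1%) against 11% of all genes and 10.8% of protein-coding genes, and no member was lower against 13.5% of all genes and 13.1% of protein-coding genes. The lowest member value in edgeR was -0.86 (HDAC8), so 0 were lower by that much at an unadjusted p under 0.05 too, and DESeq2 gave 0; without RIP replicate 1 it was 1. The median log2 fold change of members was 0.82, against -0.049 over all genes and 0.032 over protein-coding genes. In 46 members all RIP libraries lay above all control libraries, which was so for 31.8% of all genes. In 6 they lay below, which was so for 35.2%. Library scaling shifts every gene alike: by total counts the median over all genes was -0.16 and that of members 0.70, with 36 members higher and 4 lower. By total counts 20.3% of all genes were higher and 27.1% lower. Members span longer genes than most (median 55673 against 29035 bases for protein-coding genes), and the RIP fold change went with span by a Spearman coefficient of 0.22 over 11033 protein-coding genes and 0.17 over the 63 members, given as a description across genes; the part of length in the result was not tested.

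**Figure D3:**
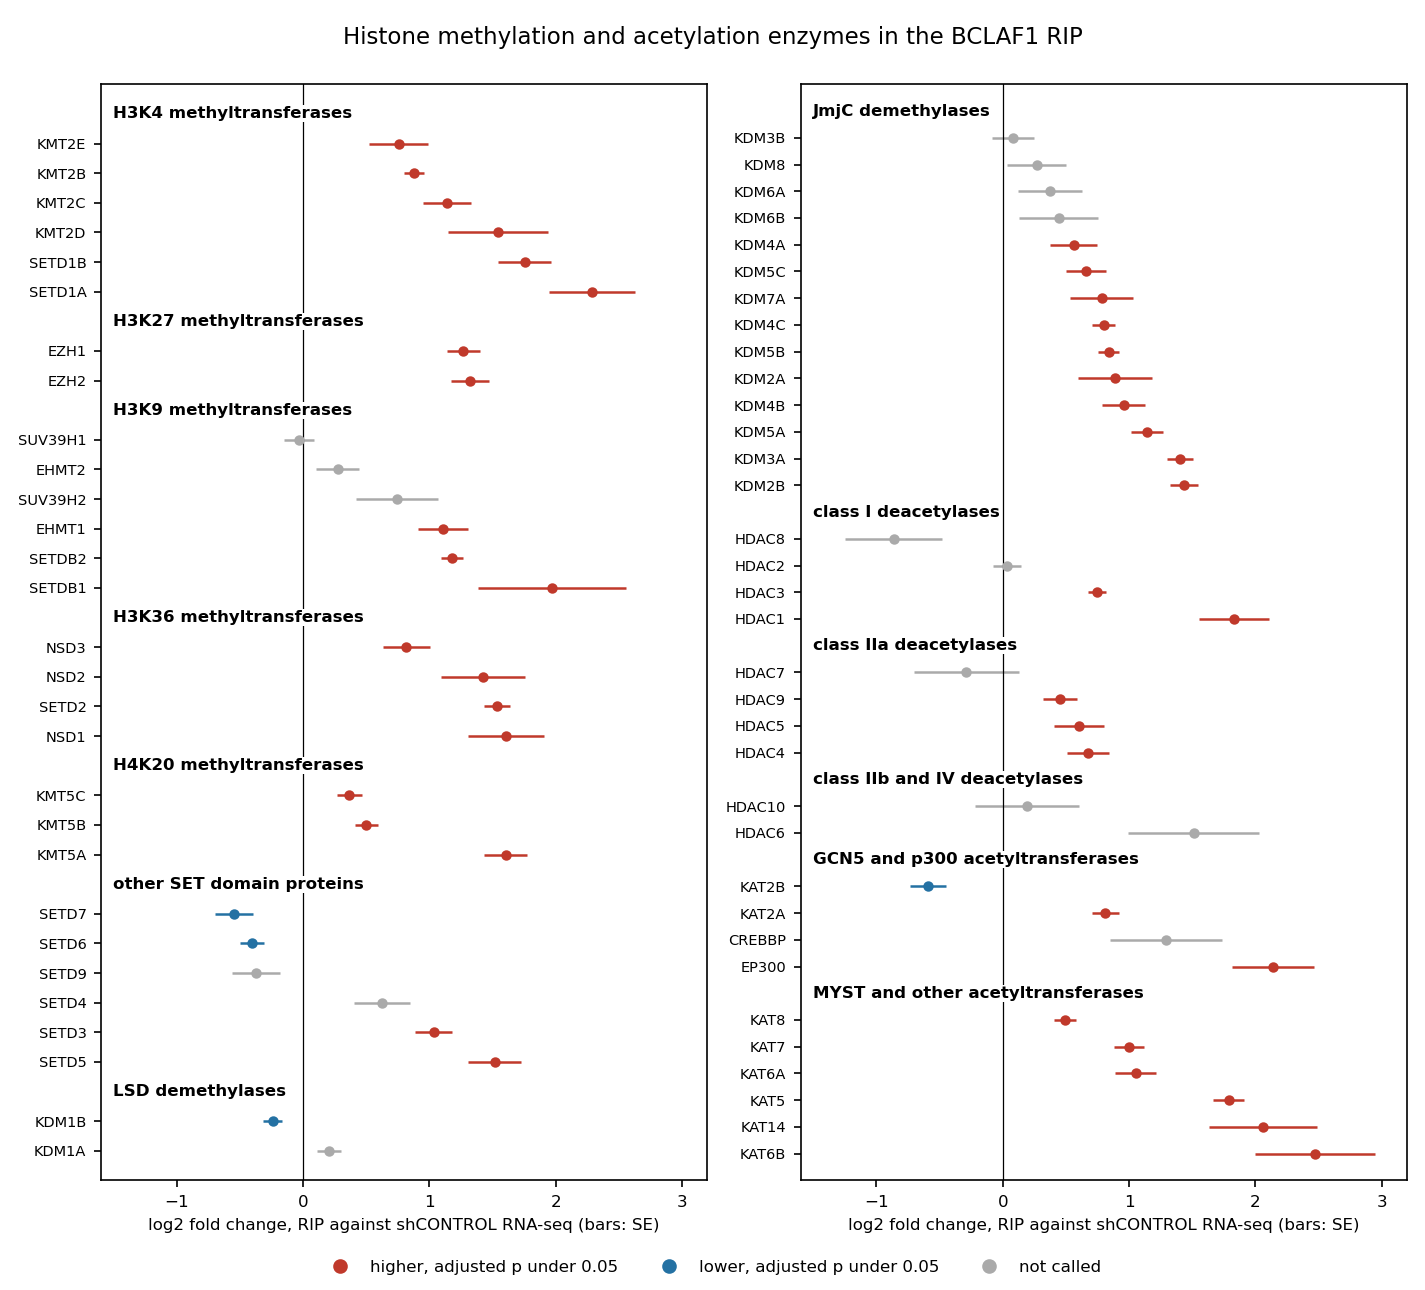
Log2 fold change of each tested member (RIP minus shCONTROL RNA-seq, horizontal axis) by enzyme class, with bars of 1 standard error; colour marks members higher, lower or not called by edgeR's test. Every gene listed as an H3K4, H3K27, H3K36 or H4K20 methyltransferase is higher in the RIP. So is every gene listed under MYST and other acetyltransferases, and the LSD demethylases lie near 0.

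All 6 genes listed as H3K4 methyltransferases, KMT2E included, were higher in the RIP. SETD1A was at 363, 755 and 339 CPM there against 97.7, 96.5 and 104 CPM in shCONTROL (log2 change 2.29 with SE 0.34, adjusted p = 0.00264), and SETD1B at 406, 612 and 376 against 138, 132 and 142 CPM (log2 change 1.75 with SE 0.21, adjusted p = 0.00119). All RIP libraries of both genes lay above their controls, with RIP replicate 2 well above the other RIP libraries. KMT2D showed the widest spread of this class, 1058, 2169 and 755 CPM in the RIP against 446, 439.7 and 481 CPM (log2 change 1.54 with SE 0.40, adjusted p = 0.01999). Without RIP replicate 2 the KMT2D value was 0.98 (adjusted p = 0.00697). KMT2D no longer passed without shCONTROL replicate 1, 2 or 3 (adjusted p from 0.0638 to 0.0716), and its adjusted p over 13 alternatives ran from 7.40e-05 to 0.0716. KMT2C (1.14, adjusted p = 0.00396), KMT2B (0.88, adjusted p = 5.66e-04) and KMT2E (0.75, adjusted p = 0.0386) were also higher.

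Both H3K27 methyltransferases were higher in the RIP. EZH1 was at 85.5, 96.7 and 72.5 CPM (log2 change 1.27 with SE 0.13, adjusted p = 7.98e-04) and EZH2 at 202, 160.3 and 237 CPM (log2 change 1.32 with SE 0.15, adjusted p = 0.00105). Neither overlapped its control libraries, whose values are given above. All 4 H3K36 methyltransferases were higher, SETD2 with 428, 496 and 416 against 152, 155 and 155 CPM (log2 change 1.53 with SE 0.10, adjusted p = 2.85e-04) and NSD1 with 353, 643 and 305 CPM (log2 change 1.61 with SE 0.30, adjusted p = 0.00589). The RIP replicates of SETD2 were close together and those of NSD1 were not. NSD2, at 498, 981 and 421 CPM (1.42, adjusted p = 0.0140), and NSD3, at 442, 623 and 394 CPM (0.82, adjusted p = 0.0131), passed as well. NSD2 no longer passed without shCONTROL replicate 1, 2 or 3 (adjusted p from 0.0516 to 0.0543), and its adjusted p over 13 alternatives ran from 2.29e-05 to 0.0543. NSD3 no longer passed without shCONTROL replicate 1 or 3 (adjusted p from 0.0511 to 0.0527), and its adjusted p over 13 alternatives ran from 4.39e-05 to 0.0527.

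The H4K20 enzyme KMT5A was at 85.3, 119 and 80.5 CPM in the RIP against 30.2, 30.9 and 32.5 CPM (log2 change 1.60 with SE 0.17, adjusted p = 8.52e-04), with KMT5B (0.50, adjusted p = 0.00522) and KMT5C (0.37, adjusted p = 0.0245) higher by less. Of the H3K9 enzymes EHMT1, at 125, 196 and 131 CPM (1.10, adjusted p = 0.00494), SETDB2, at 204, 176 and 195 CPM (1.18, adjusted p = 2.99e-04), and SETDB1 were higher. SETDB1, which silences retroelements, was at 303, 77.6 and 141 CPM in the RIP and 61.8, 47.5 and 23.1 CPM in shCONTROL (log2 change 1.97 with SE 0.59, adjusted p = 0.0331). Its lowest RIP library was not far above its highest control. Without RIP replicate 1 the SETDB1 value was 1.31. SETDB1 no longer passed without shCONTROL replicate 1, 2 or 3 or RIP replicate 1 or 3 (adjusted p from 0.0552 to 0.0925), and its adjusted p over 13 alternatives ran from 5.38e-04 to 0.0925. SUV39H1, at 33.4, 43.2 and 39.5 CPM (-0.034, adjusted p = 0.832), SUV39H2, at 33.1, 19.6 and 28.5 CPM (0.74, adjusted p = 0.105), and EHMT2, at 127, 185 and 129.9 CPM (0.27, adjusted p = 0.231), overlapped their controls and did not pass.

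The methyltransferases SETD7 and SETD6 were lower in the RIP. SETD7 was at 137, 148 and 102 CPM against 191, 189 and 185 CPM in shCONTROL (log2 change -0.55 with SE 0.15, adjusted p = 0.0254), and SETD6, which methylates the NF-kB subunit RELA, at 23.6, 21.9 and 23.6 against 27.7, 32.1 and 31.3 CPM (log2 change -0.40 with SE 0.095, adjusted p = 0.0139). Their RIP libraries all lay below their controls. SETD7 no longer passed without shCONTROL replicate 1, 2 or 3 (adjusted p from 0.0731 to 0.0811), and its adjusted p over 13 alternatives ran from 0.00128 to 0.0811. SETD6 no longer passed without shCONTROL replicate 2 or 3 (adjusted p from 0.0592 to 0.0622), and its adjusted p over 13 alternatives ran from 0.00273 to 0.0622. SETD5 (1.52, adjusted p = 0.00206) and SETD3 (1.03, adjusted p = 0.00213) were higher.

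Of the LSD demethylases 1 was lower and none higher. KDM1B was at 89.3, 94.8 and 88.7 CPM in the RIP and lower than in shCONTROL (log2 change -0.24 with SE 0.075, adjusted p = 0.0390), and KDM1A was at 157, 183 and 163 CPM and did not pass (0.21, adjusted p = 0.119). KDM1B no longer passed without shCONTROL replicate 1, 2 or 3 or RIP replicate 1 or 3 (adjusted p from 0.0596 to 0.147), and its adjusted p over 13 alternatives ran from 0.00409 to 0.147. Of the 14 JmjC enzymes 10 were higher and none lower, with a median of 0.79. KDM2B, which brings a variant Polycomb complex to CpG islands, was at 424, 519 and 512 against 179.9, 178 and 179 CPM (log2 change 1.43 with SE 0.11, adjusted p = 3.55e-04) and KDM3A, an H3K9 demethylase induced by low oxygen, at 169.9, 176 and 205 against 66.4, 74.1 and 67.3 CPM (log2 change 1.40 with SE 0.10, adjusted p = 3.06e-04). Both had RIP libraries well clear of the controls. KDM5A, at 294, 390.2 and 369 CPM (1.14, adjusted p = 9.88e-04), KDM5B, at 322, 302 and 289 CPM (0.84, adjusted p = 6.75e-04), and KDM5C, at 168, 244 and 184 CPM (0.66, adjusted p = 0.0149), were higher. KDM6A, at 66.9, 40.5 and 41.4 CPM, and KDM6B, at 89.7, 171 and 76.6 CPM, overlapped their controls and did not pass, nor did KDM3B and KDM8. KDM5C no longer passed without shCONTROL replicate 1, 2 or 3 (adjusted p from 0.0501 to 0.0601), and its adjusted p over 13 alternatives ran from 2.66e-04 to 0.0601.

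Of the 10 tested deacetylases 5 were higher in the RIP and none was lower. HDAC1 was at 418, 367 and 741 CPM against 142, 139 and 146 CPM in shCONTROL (log2 change 1.83 with SE 0.27, adjusted p = 0.00267), and its close relative HDAC2 at 230.5, 213 and 272 against 238, 227 and 230.0 CPM (log2 change 0.033 with SE 0.11, adjusted p = 0.816). The RIP libraries of HDAC1 lay far above its controls, and those of HDAC2 overlapped theirs. HDAC3 (0.74, adjusted p = 6.54e-04), HDAC4 (0.67, adjusted p = 0.0168), HDAC5 (0.60, adjusted p = 0.0480) and HDAC9 (0.45, adjusted p = 0.0337) were the other members higher in the RIP. HDAC8 was at 21.8, 16.6 and 7.15 CPM against 26.1, 28.4 and 28.1 CPM and did not pass (-0.86, adjusted p = 0.109). HDAC6 was at 15.9, 17.6 and 30.9 CPM against 4.62, 13.4 and 4.39 CPM and did not pass either (1.51, adjusted p = 0.0520). The groups did not overlap for HDAC8 or for HDAC6.

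The acetyltransferases EP300, KAT5, KAT6B and KAT14 were among the members with the highest RIP values relative to RNA-seq. EP300 was at 1048, 1824 and 791 CPM in the RIP against 273, 275 and 282 CPM (log2 change 2.14 with SE 0.32, adjusted p = 0.00272) and KAT5 (TIP60), of the NuA4 complex, at 97.4, 105 and 130.2 against 31.4, 31.9 and 32.4 CPM (log2 change 1.79 with SE 0.12, adjusted p = 2.88e-04). The RIP libraries of KAT5 were close together and those of EP300 were led by replicate 2. KAT6B (MORF) was at 197, 124 and 153 against 11.3, 40.7 and 33.01 CPM (log2 change 2.47 with SE 0.48, adjusted p = 0.00672) and KAT14, of the ATAC complex, at 95.1, 87.4 and 113 against 24.4, 10.6 and 35.3 CPM (log2 change 2.06 with SE 0.43, adjusted p = 0.00865). In both of these the control libraries themselves differed by over 2-fold, and the groups still did not overlap. CREBBP, at 296, 654 and 194 CPM, did not pass (1.29, adjusted p = 0.0529). It passed without RIP replicate 2, with the log2 change down to 0.64 (adjusted p = 0.0412), and without RIP replicate 3, with 1.61 (adjusted p = 0.0148), and over its 13 alternatives the adjusted p ran from 0.00409 to 0.137. KAT2B was lower, with 9.29, 9.27 and 7.95 against 11.95, 15.04 and 12.9 CPM (log2 change -0.59 with SE 0.14, adjusted p = 0.0149), and KAT2A, at 115, 112 and 132 CPM, was higher (0.81, adjusted p = 0.00170). KAT2B no longer passed without shCONTROL replicate 2 (adjusted p = 0.0567), and its adjusted p over 13 alternatives ran from 0.00268 to 0.0567.

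RIP replicate 2 stood apart for these genes. It was the highest RIP library in 33 of the 63 members (52.4%), against 31.8% of all genes tested, and exceeded both other RIP libraries by at least 1.5-fold in 10 members, a pattern seen in 6.82% of all genes. Over the mean of RIP replicates 1 and 3 it was 2.67-fold for CREBBP, 2.39-fold for KMT2D, 2.15-fold for SETD1A, 2.13-fold for NSD2 and 1.98-fold for EP300. For HDAC1, RIP replicate 3 was at 1.89-fold the mean of the other two. Without RIP replicate 2, 43 members were higher and 4 lower, as with it, against 24.5% and 25.5% of all genes. Without RIP replicate 2, 20 members in place of 24 were higher by at least 1. HBA2 was at 0 in the same library and above 0 in the other two; the part of that in the result was not tested. The number of members lower in the RIP was 2, 0 and 1 without shCONTROL replicate 1, 2 and 3. Of all genes 19.3%, 19.4% and 19.0% were lower in those fits.

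Within the groups, the highest library exceeded the lowest by a median of 1.09-fold in shCONTROL, 1.10-fold in shBCLAF1 and 1.47-fold in the RIP over the 63 members. The range was wider than 2-fold for 13 members in the RIP, 5 in shCONTROL and 3 in shBCLAF1. SUV39H2, SETDB1, HDAC6, KAT6B and KAT14 were the 5 in shCONTROL, and their knock-down fold changes carry the widest errors among the members. SUV39H2, at 17.6, 20.9 and 9.68 CPM in shCONTROL and 18.1, 16.4 and 0.60 CPM in shBCLAF1, had 22 counts in shBCLAF1 replicate 3. The knock-down value of SUV39H2 (-0.45) turned positive, to 0.11, without that library.

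For close relatives the ratio of the 2 genes within a library does not depend on library scaling. Over 14 pairs and both comparisons, 28 relations were computed. The ratio moved without overlap in 5 pairs after knock-down and 8 pairs in the RIP. The share among other gene pairs was not computed, so these counts have no background beside them. Pairs within the NSD set and within the KDM5 set share genes and are not independent. With 3 libraries against 3 an exact two-sided permutation test cannot go below 0.1, and the smallest adjusted value was 0.215, so that none passes. After knock-down the log2 ratio of EZH1 to EZH2 was -1.69, -1.52 and -1.63 against -1.003, -1.16 and -1.39 in shCONTROL, a difference of -0.43, and that of NSD1 to NSD2 differed by -0.34. The log2 ratio of HDAC1 to HDAC2 was 0.86, 0.79 and 1.45 in the RIP against -0.75, -0.71 and -0.66 in shCONTROL, a difference of 1.74 (SE 0.21). That of KAT2A to KAT2B was 3.63, 3.59 and 4.05 against 2.56, 2.02 and 2.48, a difference of 1.41 (SE 0.22). EP300 to CREBBP differed by 0.95 in the RIP and EHMT1 to EHMT2 by 0.82. A positive difference is another way of stating that the gene named first had the larger RIP log2 fold change.

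**Figure D4:**
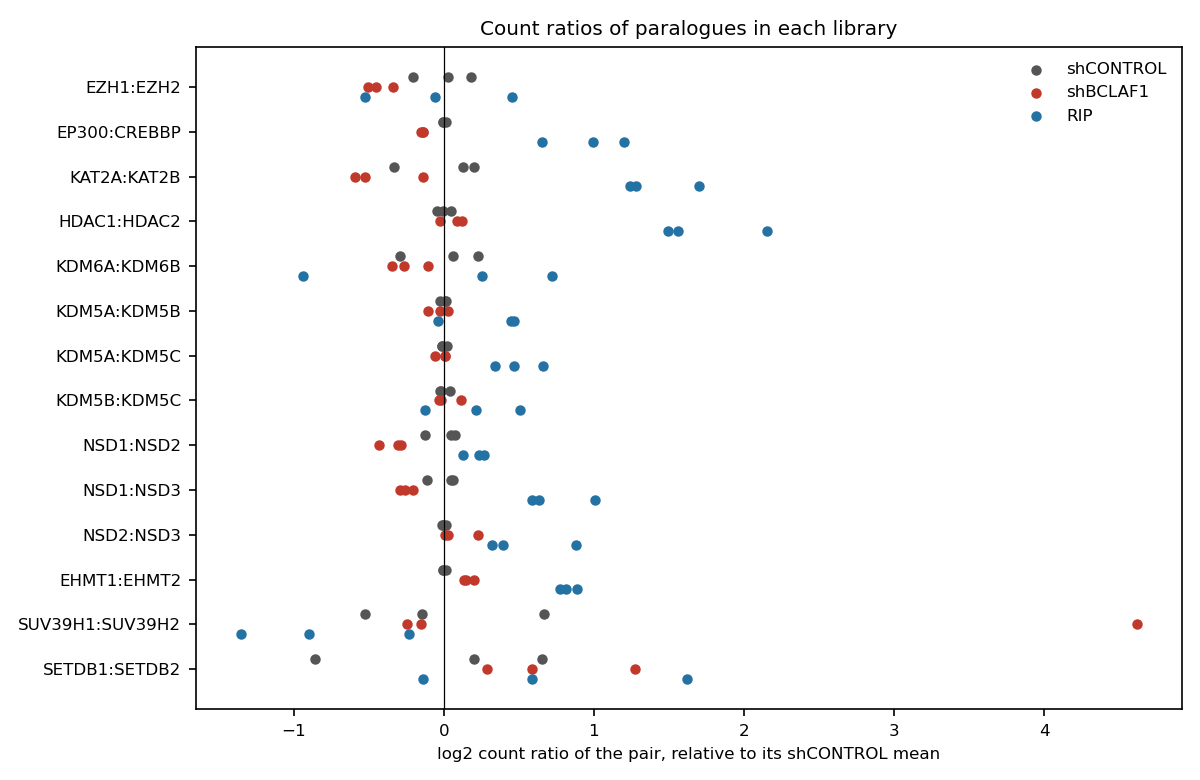
Log2 count ratio of 2 related genes in each of the 9 libraries, relative to the mean ratio of that pair in shCONTROL (horizontal axis), for 14 pairs (rows); 1 point a library, coloured by group. The RIP points of HDAC1 to HDAC2 and of KAT2A to KAT2B lie to the right of all their control points, by 1.74 and 1.41 on average.

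Of the 122 partner genes 66 were higher in the RIP and 15 lower, 33 of them higher by at least 1, with a median of 0.55. Over all genes tested 24.6% were higher, 24.7% lower and 11% higher by at least 1. All 12 bromodomain readers had positive values and 8 were higher, among them BRD3 (1.38, adjusted p = 0.0209), BRD2 (1.33, adjusted p = 0.00136) and BRD9 (1.28, adjusted p = 0.00120). Of 25 deacetylase corepressor subunits 16 were higher and 2 lower, MBD3 (1.73, adjusted p = 4.04e-04) and GPS2 (1.61, adjusted p = 0.004004) being among those with the largest values. Of 35 acetyltransferase complex subunits 21 were higher and 3 lower, the higher ones including BRD8 (2.05, adjusted p = 2.73e-04) of NuA4 and MSL3 (1.79, adjusted p = 8.99e-04), a reader of the complex that holds KAT8. Of 13 other lysine methylation enzymes 10 were higher and 2 lower, including DOT1L (1.06, adjusted p = 0.0339), the H3K79 methyltransferase. Among 10 partners of the H3K4 enzymes 5 were higher and 3 lower, from NCOA6 (2.80, adjusted p = 1.82e-04) to DPY30 (-1.36, adjusted p = 0.00298). Of 9 Polycomb partners 3 were higher, JARID2 (1.29, adjusted p = 0.0104), MTF2 (0.81, adjusted p = 0.00121) and SUZ12 (0.48, adjusted p = 0.0482). Of 8 partners in H3K9 methylation 1 was higher and 2 lower, TRIM28 (-1.38, adjusted p = 5.04e-04), the corepressor that recruits SETDB1, and CBX5 (-0.86, adjusted p = 0.0224). Of 10 other acetylation enzymes 2 were higher and 3 lower, with SIRT6 (-1.28, adjusted p = 3.11e-04) lower and SIRT1 (0.81, adjusted p = 0.00352) higher.

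Both comparisons use the same 3 shCONTROL libraries, so a low or high control value moves a gene in both, and the values are set side by side only. KDM7A gave -1.16 after knock-down and 0.78 in the RIP, EZH1 -0.59 and 1.27, and NSD1 -0.34 and 1.61. HDAC4 gave 0.78 and 0.67, and KMT2D 0.46 and 1.54. KDM1B and SETD7 were lower in both, with -0.44 and -0.24, and -0.32 and -0.55. Several members overlap another protein-coding gene in the annotation, and the strand setting of the authors' counting is not given in the sources used here, so reads could be split with the neighbour. Among the methyltransferases and SET domain proteins these are KMT2B with IGFLR1, KMT2E with SRPK2, SETD1B with RHOF, SUV39H2 with DCLRE1C, SETDB2 with SETDB2-PHF11, NSD3 with DDHD2, KMT5A with RILPL2, SETD3 with CCNK, SETD6 with CNOT1 and SETD9 with MIER3. Among the other enzymes they are KDM1A with LUZP1, KDM2B with RNF34, KDM5A with TAS2R45, KDM6B with an unnamed locus, HDAC7 with SLC48A1, KAT5 with RNASEH2C, KAT7 with FAM117A and KAT14 with PET117. The values of these members are uncertain to that extent.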

How the data were processed

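The authors deposited a table of estimated counts per gene for 9 libraries, not normalized and in whole numbers, and it was used as deposited. Per the submitters' processing notes STAR 2.7.11b and StringTie 2.2.3 were used with hg38, with no role given, and the strand setting is not given in the sources used here. A single entry that names no gene was left out (2.18% to 3.75% of the counts in the 8 libraries with a value for it). RIP replicate 1 has no value for that entry. Counts were tested with edgeR 4.0.16 in R 4.3.3: default low-count filter, TMM scaling, quasi-likelihood F-test over the 6 libraries of a comparison, prior count 2, Benjamini-Hochberg adjustment over all genes tested, and calls at 0.05. Common dispersions gave coefficients of variation of 0.233 (knock-down) and 0.313 (RIP). Standard errors (SE) were worked back from the test, which reports none. Each is the absolute log2 fold change before the prior count, divided by the square root of the F statistic. The scripts were tested on simulated data. Alternatives were other scalings, DESeq2 1.42.0, other filters, a single fit of all libraries, a replicate block, a test against a log2 change of 1 and leaving out each library. All 67 members matched RefSeq entries of GRCh38.p14 by identifier or symbol.

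The members, the lists of partner genes and the markers were chosen with earlier results of these data known. Genes named with values were the 12 members with the largest called changes in each direction of each comparison, both genes of the related pairs, and up to 3 called genes of each partner list with the largest changes. Some marker and partner genes are not reported here. KDM2B, KDM3A, KDM3B, HDAC3, HDAC6, HDAC8 and other members named beside these were chosen after their values were seen.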

Additional observations from a re-analysis of the deposited data

How the results depend on the processing

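A single fit of all 9 libraries left 1 member higher and 3 lower after knock-down. In that fit 6.48% of all genes were higher and 7.57% lower. Leaving out 1 library gave 7 to 15 higher and 9 to 10 lower after knock-down. The shares over all genes were then 11.4% to 15.3% higher and 12.5% to 15.8% lower. In the RIP leaving out 1 library gave 30 to 43 members higher, 0 to 5 lower and 0 to 1 lower by at least 1. Over all genes 18.4% to 24.5% were then higher and 19.0% to 26.7% lower. Tested against a log2 change of 1, 10 members were higher and 0 lower in the RIP, against 4.38% and 6.83% of all genes. Correlations of the deviations of same-numbered libraries ran from -0.02 to 0.06, and those of unlike-numbered libraries from -0.04 to 0.04. Such values cannot tell whether same-numbered libraries share a culture or a batch. With the replicate block 10 members were higher and 9 lower after knock-down, against 13.4% and 15.0% of all genes. In the RIP the block gave 38 higher and 2 lower, against 19.4% and 19.5% of all genes. The summed CPM of members was 6473 (SD 80.5, n = 3) in shCONTROL, 6757 (SD 55.9) in shBCLAF1 and 14325 (SD 3042) in the RIP, and 6578, 7132 and 13314 as CPM of total counts. The cause of these shifts was not tested. DESeq2 gave 19 higher and 13 lower after knock-down, against 16.1% and 17.5% of all genes. In the RIP it gave 46 and 4, against 23.0% and 22.7% of all genes.

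Of 910 values of single members under alternatives, 786 kept direction and side of the threshold, 89 lost a call, 15 gained one and 20 changed sign, all of the last in members that had not passed. By total counts KDM5A gave 0.041, NSD2 0.049 and SUV39H1 0.021 after knock-down, and HDAC2 -0.082 in the RIP. Without the filter KDM5C gave -0.0060. Leaving out 1 library in turn gave ranges across 0 after knock-down for KDM5A (-0.019 to 0.020), NSD2 (-0.023 to 0.024), SUV39H1 (-0.056 to 0.011), SUV39H2 (-0.91 to 0.11), KDM5C (-0.022 to 0.041), KDM6A (-0.11 to 0.21) and KAT2A (-0.0037 to 0.11), and in the RIP for HDAC2 (-0.065 to 0.10), SUV39H1 (-0.13 to 0.065) and KDM6B (-0.0037 to 0.66). The 4 members at 0 are bounded by the depth at 0.0819 to 0.116 CPM of total counts, for counting error only.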
